A study of Drosophila melanogaster with 24 samples.

Results

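The let-7 complex is a cluster of 3 microRNA hairpins, mir-100, mir-let7 and mir-125, that are cut from a single long RNA in the fruit fly Drosophila melanogaster. Its members were the rows of the deposited microRNA count table that name an arm of those hairpins, and all 6 arms were found (dme-let-7-5p, dme-let-7-3p, dme-miR-100-5p, dme-miR-100-3p, dme-miR-125-5p and dme-miR-125-3p, named below without the species prefix) among 466 mature microRNA names, 329 of which had at least 1 count. They were followed in 24 small RNA libraries: hemolymph, the circulating fluid of the fly, of old flies (25 days, n = 8) and of young flies (2 days, n = 4), and body tissue of old flies (25 days, n = 8) and of young flies (2 days, n = 4). All flies are labelled male, and the labels name no strain, mutation or treatment. Nothing in them says that the libraries of a group are separate animals or pools, and p-values therefore cover only library-to-library spread, part of which may be technical. Hemolymph RNA was extracted with a serum and plasma kit and body RNA with a tissue kit, so kit and compartment cannot be told apart.

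MicroRNAs are short RNAs that bind messenger RNAs through the seed near their 5′ end and lower their output. A hairpin gives a duplex of a 5p and a 3p arm, of which one usually stays bound to an Argonaute protein while the other is mostly degraded. In the fly the let-7 complex is switched on by the steroid hormone ecdysone near the end of larval life and stays on in the adult, where it is known from muscle and nervous tissue among others. let-7 is needed for the remodelling of nerve and muscle at metamorphosis and acts on abrupt, miR-125 acts with let-7 on chinmo in the timing of neuron fates, and miR-100 is the least studied of the 3 in the fly.

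In the Ensembl annotation of the dm6 genome (BDGP6) the complex lies on chromosome arm 2L, plus strand. The host gene, the long noncoding RNA lncRNA:let7C, runs from 18455717 to 18473132, and all 3 hairpins lie in its exon 2, from 18470869 to 18472497. The mir-100 hairpin comes first (18471434 to 18471533), then mir-let7 (18472034 to 18472111), then mir-125 (18472315 to 18472424). They are 500 and 203 bases apart, and the stretch from the first to the last is 991 bases. As the 6 arms share 1 precursor RNA, they are not independent samples of a condition.

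**Figure D1:**
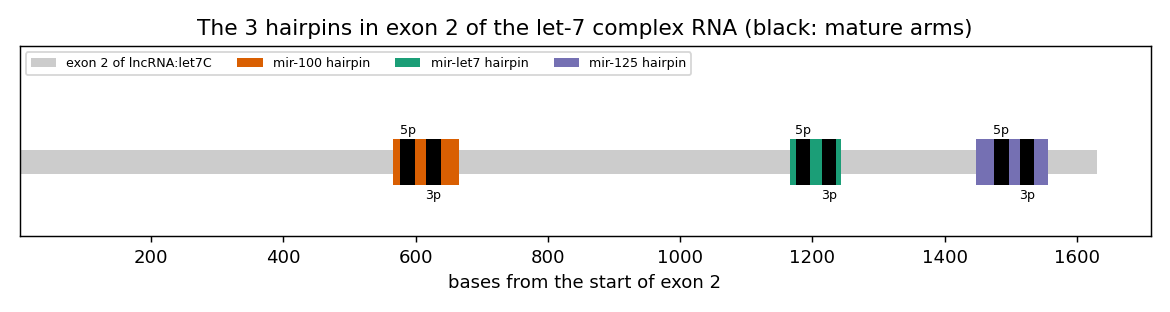
Map of exon 2 of lncRNA:let7C to scale, in bases from its start, with the mir-100, mir-let7 and mir-125 hairpins in colour and their 5p and 3p mature arms in black. The 3 hairpins stand within 991 bases, with 500 bases between mir-100 and mir-let7 and 203 between mir-let7 and mir-125.

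Total microRNA counts ran from 52792 to 120876 in old hemolymph, from 56010 to 275974 in young hemolymph, from 136692 to 230282 in old body and from 180182 to 242935 in young body. Levels below are CPM, each count scaled to the sum of the microRNA counts of its library. Young hemolymph libraries 3 and 4 stood apart from 1 and 2 for the complex. They were shallow (56010 and 69239 counts, against 169817 and 275974 in libraries 1 and 2). They held 5 and 6 counts of miR-100-5p, against 370 and 473. Old hemolymph libraries 2, 3 and 4, of like depth (55099, 52792 and 55454 counts), held 108, 107 and 124 counts of it. Ovary markers, miR-318-3p, miR-994-5p and miR-989-3p summed, moved with the young library numbers as well, although the flies are labelled male. They stood at 1214 and 2152 CPM in young hemolymph libraries 3 and 4, against 23.6 and 50.7 CPM in libraries 1 and 2. In young body they stood at 80276 and 69146 CPM in libraries 3 and 4, against 2551 and 14957 CPM in libraries 1 and 2. The summed range was 227 to 20197 CPM in old hemolymph, with its top in library 4, and 19753 to 35788 CPM in old body. None of the 3 markers was at 0 in a whole group. The young split rested on miR-318-3p (64.0 to 68136.5 CPM in young body) and miR-994-5p (69.4 to 10060 CPM). In young body miR-989-3p ran only from 2418 to 5322 CPM. It had 4 counts in all of young hemolymph, with at most 11.8 CPM in a library. The part of the ovary markers in any result was not tested. Many results of single arms and some ratios are also given without young libraries 3 and 4, an alternative chosen after seeing the data. For ratios only the hemolymph libraries of those numbers were left out. The remaining results are given with those libraries in, and their dependence on them is not shown. Muscle and nervous system markers were low in hemolymph. The 2 muscle markers (miR-1-3p and miR-133-3p) summed to 26.7 to 170 CPM in old hemolymph and 144 to 393 CPM in young hemolymph. They summed to 1530 to 2020 CPM in old body and 2247 to 4472 CPM in young body. The 3 nervous system markers summed to 18.0 to 170 CPM in old hemolymph and 28.9 to 53.6 CPM in young hemolymph, where miR-124-3p was at 0, against 2768 to 3910 CPM in old body, with 2201 to 3645 CPM in young body. The 6 testis markers summed to 0 to 152 CPM in old hemolymph and 17.9 to 82.4 CPM in young hemolymph, where miR-962-5p and miR-963-5p were at 0. They summed to 119 to 198 CPM in old body and 53.4 to 86.0 CPM in young body, so the compartments overlapped at both ages.

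By group mean, the complex took a larger part of the circulating microRNAs than of those of the body. The share did not overlap between the old groups. In the young groups it did, with 0.582 to 1.94% in hemolymph libraries and 0.368 to 0.634% in body libraries. The 6 arms together made up 1.55 ± 0.279% of microRNA counts in old hemolymph (SD, n = 8) and 1.12 ± 0.646% in young hemolymph (n = 4), against 0.333 ± 0.0535% in old body (n = 8) and 0.451 ± 0.125% in young body (n = 4). let-7-5p supplied most of it, with 66.2 ± 5.61% of the 6 arms' counts in old hemolymph, 69.7 ± 9.84% in young hemolymph, 60.9 ± 3.21% in old body and 63.9 ± 5.33% in young body. By mean CPM, let-7-5p ranked 15 among all microRNAs in old hemolymph and 20 in young hemolymph, against ranks of 42 in old body and, close by, 40 in young body. The 5p arms came in the order let-7-5p, miR-125-5p, miR-100-5p by mean CPM in each of the 4 groups, and the mature arms are all of 21 or 22 bases. The ranges of miR-125-5p and miR-100-5p overlapped in all groups but old body, and those of let-7-5p and miR-125-5p overlapped in young hemolymph.

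let-7-5p ran from 6868 to 14480.5 CPM in old hemolymph (median 10355, 8 libraries). In young hemolymph it had 11565, 8519, 4999 and 4463 CPM in libraries 1 to 4. In old body it ran from 1722 to 2387 CPM (median 1998, 8 libraries), and in young body libraries 1 to 4 it had 4387, 2886, 2237 and 2173 CPM. Every hemolymph library stood above every body library, and the young libraries with the highest values were numbers 1 and 2 in both compartments.

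miR-100-5p ran from 1419 to 2728 CPM in old hemolymph (median 2048). In young hemolymph libraries 1 to 4 it had 2179, 1714, 89.3 and 86.7 CPM. It ran from 308 to 564 CPM in old body (median 379.6), and had 955, 583, 420.0 and 428 CPM in young body libraries 1 to 4. Old hemolymph stood wholly above both body groups, whereas the young hemolymph libraries fell into 2 above and 2 below every body library. On the log2 scale the SD of miR-100-5p between libraries was 0.31 in old hemolymph, 2.58 in young hemolymph, 0.39 in old body and 0.55 in young body.

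miR-125-5p ran from 2122 to 3973 CPM in old hemolymph (median 2484). In young hemolymph libraries 1 to 4 it had 5294, 3152 (870 counts), 1018 and 867 CPM. It ran from 602 to 1148 CPM in old body (median 797), and had 961, 760.3, 1042 and 1041 CPM in young body libraries 1 to 4. The old groups did not overlap. In the young groups, hemolymph libraries 1 and 2 lay above all body libraries, and hemolymph libraries 3 and 4 lay within the range of the body libraries.

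By mean CPM, the 3p arms were rarer than their 5p partners by more than an order of magnitude in every group. miR-125-3p averaged 167 ± 60.1 CPM in old hemolymph, 202 ± 113 CPM in young hemolymph, 34.9 ± 16.1 CPM in old body, with 19.9 ± 4.23 CPM in young body (SD). miR-100-3p averaged 123 ± 37.5, 47.4 ± 21.9, 25.1 ± 6.38 and 13.5 ± 8.40 CPM in the same order. let-7-3p had 0 to 4 counts in a library and was at 0 in old hemolymph library 7 and old body libraries 7 and 8, where 0 counts allow up to 40.1, 16.9 and 21.9 CPM (3 counts). Its mean CPM was 27.6 ± 14.9 in old hemolymph, 14.3 ± 4.96 in young hemolymph, 8.64 ± 7.91 in old body and 6.04 ± 1.47 in young body. It failed the low-count filter in every comparison and so has no main test. With no filter, its log2 fold change between old hemolymph and old body was 1.54 (18 and 11 counts in all, adjusted p = 0.0206). No molecular identifiers were used, so such limits cover counting error only.

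**Figure D2:**
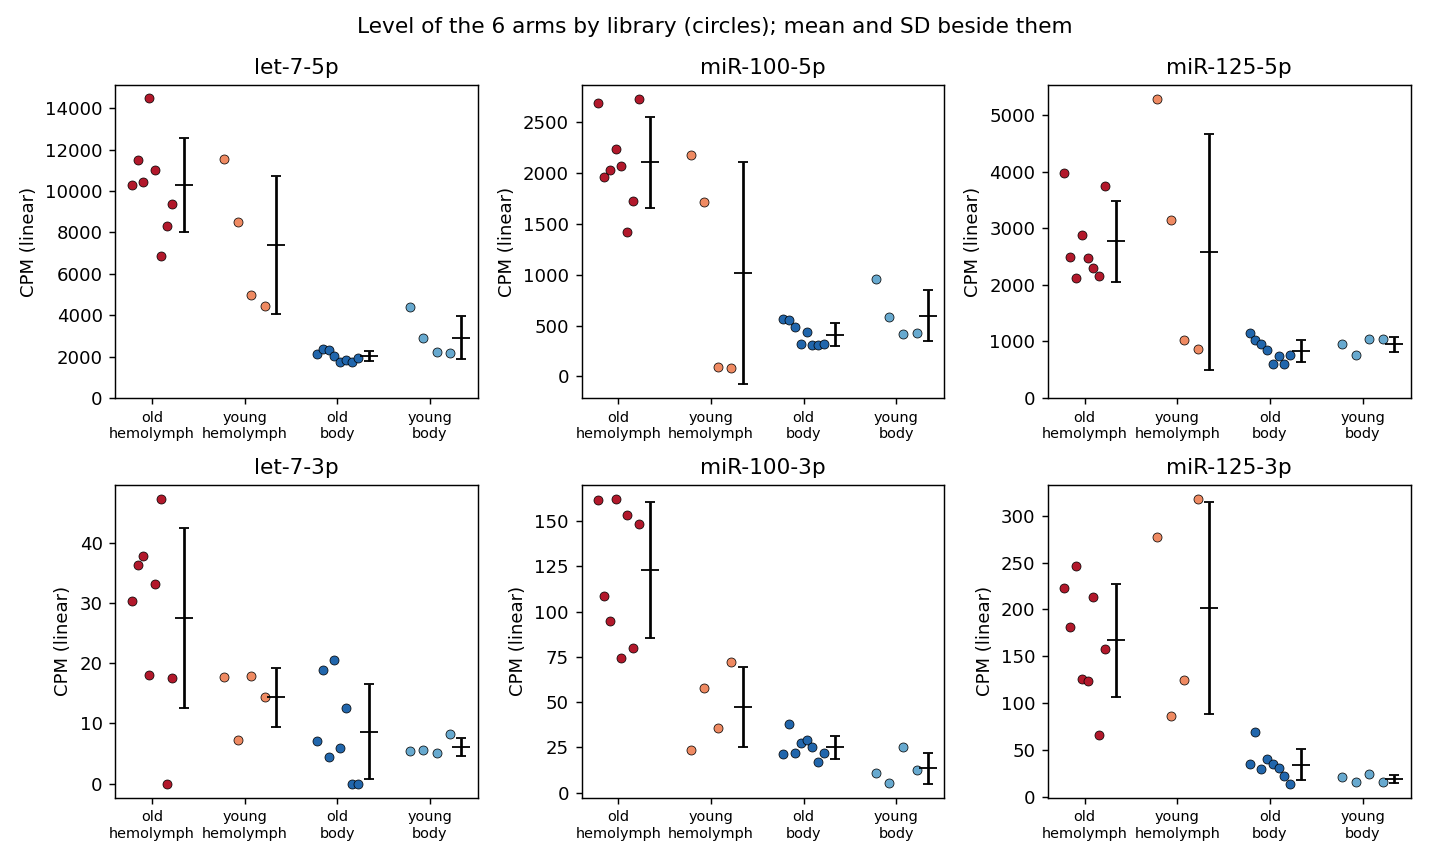
CPM of the 6 arms on linear axes, 1 panel an arm (5p above, 3p below), with a circle for each library of old hemolymph (n = 8), young hemolymph (n = 4), old body (n = 8) and young body (n = 4), and the mean with SD beside them. let-7-5p lies higher in every hemolymph library (4463 CPM or more) than in any body library (4387 CPM or less), and miR-100-5p of young hemolymph splits into libraries 1 and 2 at 2179 and 1714 CPM and libraries 3 and 4 at 89.3 and 86.7 CPM.

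The first question was how the circulating complex compared with that of the tissues in old flies. All 5 arms that could be tested were higher in old hemolymph than in old body, by 1.63 to 2.23 on the log2 scale (edgeR quasi-likelihood test, Benjamini-Hochberg adjusted over 124 microRNAs). Over all microRNAs tested, 36.3% were called higher and 46% lower, so that 82.3% were called in one direction or the other. The median log2 fold change was 2.16 over the 5 arms and -0.45 over all microRNAs tested. miR-100-3p and miR-125-3p passed the filter only through hemolymph, where they were high, with at most 37.7 and 69.1 CPM in a body library. The count of 5 and the median over the 5 arms therefore lean towards hemolymph. With the 2 old groups fitted alone these 3p arms were not tested. let-7-5p, miR-100-5p and miR-125-5p were then called at 2.69, 2.72 and 2.11. let-7-5p averaged 10283 ± 2271 CPM in old hemolymph and 2019 ± 249 CPM in old body (SD, n = 8 each), a log2 fold change of 2.23 ± 0.23 (SE, adjusted p = 3.34e-09). miR-100-5p averaged 2106 ± 446 CPM in old hemolymph and 412 ± 113 CPM in old body, and rose by the same 2.23 ± 0.45 (adjusted p = 7.57e-05). The rise of miR-125-5p was 1.63 ± 0.28, from means of 2771 ± 716 CPM in old hemolymph and 833 ± 196 CPM in old body (adjusted p = 1.05e-05). The rare arms moved alongside: miR-100-3p was higher by 2.16 ± 0.27 and miR-125-3p by 2.13 ± 0.32 (adjusted p = 1.03e-07 and 1.77e-06). As libraries were scaled to one another, these changes are relative to the other microRNAs and not amounts per volume of hemolymph, and fewer cells of a type cannot be told apart from less RNA per cell.

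In young flies 4 of the 5 tested arms were higher in hemolymph than in body, and miR-100-5p was the exception. Of the 124 microRNAs tested, 33.1% were called higher and 40.3% lower (73.4% in all), with a median log2 fold change of -0.26, against 1.55 over the 5 arms. miR-100-3p and miR-125-3p came through the same filter by their hemolymph counts alone. With the 2 young groups fitted alone miR-100-3p was not tested. let-7-5p averaged 7387 ± 3316 CPM in young hemolymph and 2921 ± 1029 CPM in young body (SD, n = 4 each), higher by 1.34 ± 0.31 (adjusted p = 0.000499). miR-125-5p averaged 2583 ± 2087 CPM in young hemolymph and 951 ± 133 CPM in young body, higher by 1.55 ± 0.39 (adjusted p = 0.000972). The change was larger in its 3p arm, with 47, 24, 7 and 22 counts in young hemolymph libraries 1 to 4 and 4, 3, 5 and 4 counts in young body, and a log2 fold change of 3.41 ± 0.46 (adjusted p = 5.3e-07). miR-100-3p had 4, 16, 2 and 5 counts in young hemolymph and 2, 1, 5 and 3 in young body, a log2 fold change of 1.93 ± 0.43 (adjusted p = 0.000299). miR-100-5p averaged 1017 ± 1090 CPM in young hemolymph, where the SD exceeds the mean, and 597 ± 251 CPM in young body, with a log2 fold change of 0.82 ± 0.60 (adjusted p = 0.231).

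These young results rested to different degrees on which libraries were in the fit. Without young libraries 3 and 4 of both compartments, miR-100-5p was called higher in hemolymph at 1.30 (adjusted p = 0.00846), miR-125-5p at 2.20 (adjusted p = 0.000219), and let-7-5p stayed close at 1.41 (adjusted p = 0.000441). Without libraries 1 and 2 instead, miR-100-5p was called lower in hemolymph at -2.30 (adjusted p = 3.89e-05) and miR-125-5p was not called, at -0.19 (adjusted p = 0.579). The call of miR-100-3p was also lost without libraries 1 and 2 (1.52, adjusted p = 0.0522), and that of miR-125-5p was lost when the 2 young groups were fitted alone (1.34, adjusted p = 0.0521). let-7-5p was called higher with either pair left out (1.05 and adjusted p = 0.000117 without libraries 1 and 2), and so was miR-125-3p at 3.37 without libraries 1 and 2 and 3.01 without libraries 3 and 4. With the young library numbers as a block, miR-100-5p stood at 0.03 (adjusted p = 0.965) and no call among the young members changed. Upper-quartile scaling also called miR-100-5p, at 1.54 (adjusted p = 0.0216). That scaling moved the median of all microRNAs to 0.32, and factors by relative log expression (RLE) moved it to -0.78.

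With age, let-7-5p was called lower in body tissue, a call that rested on young libraries 1 and 2, as the next paragraph shows. The 3 arms that passed the count filter there, all 5p, had negative log2 fold changes, and let-7-5p alone passed the test. Among 115 microRNAs tested, 29.6% were called lower and 19.1% higher in old body (48.7% in all, 22 higher and 34 lower), with a median log2 fold change of -0.20. Upper-quartile scaling called 13 higher and 35 lower. let-7-5p averaged 2019 ± 249 CPM in old body (n = 8) and 2921 ± 1029 CPM in young body (n = 4), and fell by 0.63 ± 0.22 on the log2 scale (adjusted p = 0.0304). miR-100-5p averaged 412 ± 113 CPM in old body, with 597 ± 251 CPM in young body, a log2 fold change of -0.63 ± 0.28 (adjusted p = 0.0811). For miR-125-5p the means were 833 ± 196 CPM in old body, with 951 ± 133 CPM in young body, with a log2 fold change of -0.24 ± 0.16 (adjusted p = 0.239). The 3p arms pointed the other way in mean CPM but were too low to be tested: miR-100-3p had 33 counts in the 8 old body libraries and 11 in the 4 young ones, and miR-125-3p had 46 and 16.

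The let-7-5p call in body rested on young libraries 1 and 2. They held the highest values and the lowest summed ovary marker levels of the young body libraries. Without both, the log2 fold change was -0.07 (adjusted p = 0.638), and without young libraries 3 and 4 it was -0.97 (adjusted p = 0.000161). The call was lost without young body library 1 alone (-0.27, adjusted p = 0.0964), library 2 alone (-0.52, adjusted p = 0.0574) or old body library 7 (-0.59, adjusted p = 0.0509). Without young libraries 3 and 4, miR-100-5p was also called lower, at -1.02 (adjusted p = 0.00235).

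In hemolymph, 1 of the 5 tested arms was called with age. miR-100-3p averaged 123 ± 37.5 CPM in old hemolymph (n = 8) and 47.4 ± 21.9 CPM in young hemolymph (n = 4), and rose by 1.13 ± 0.38 (adjusted p = 0.0240). It passed the count filter only through old hemolymph libraries 1, 4, 6 and 8 (149 to 162 CPM), as young libraries had at most 72.2 CPM. The group where it was high thus brought it to the test. With O-coded or R-coded old libraries alone it was not tested. Its counts were low, 5 to 17 in a library of old hemolymph and 2 to 16 in young hemolymph, and the call was lost without young hemolymph library 1 (0.85, adjusted p = 0.119) and without young libraries 3 and 4 (1.14, adjusted p = 0.0601). Among 86 microRNAs tested, 18.6% were called higher and 27.9% lower in old hemolymph (46.5% in all, 16 higher and 24 lower), with a median log2 fold change of 0.02. With library size alone, 20 were called higher and 19 lower.

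The 5p arms did not pass. The log2 fold change of let-7-5p was 0.19 ± 0.27 (adjusted p = 0.572), that of miR-100-5p 0.71 ± 0.67 (adjusted p = 0.419) and that of miR-125-5p -0.20 ± 0.42 (adjusted p = 0.719). miR-125-3p had -0.48 ± 0.39 (adjusted p = 0.338). Their direction depended on the young libraries. Without libraries 3 and 4 the values were -0.34 for let-7-5p (adjusted p = 0.124), -0.26 for miR-100-5p (adjusted p = 0.300) and -0.97 for miR-125-5p, which was then called lower (adjusted p = 0.00644). Without libraries 1 and 2 all 3 were called higher, at 0.87, 4.33 and 1.32 (adjusted p = 0.00393, 1.34e-06 and 0.00354). miR-125-5p also changed sign with upper-quartile scaling (0.07) and with library size alone (0.09), with adjusted p = 0.900 and 0.868.

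Whether the age change differed between the compartments was tested as an interaction over all 24 libraries, in which 14.5% of 124 microRNAs were called (6.45% higher, 8.06% lower). The calls were 8 higher and 10 lower, against 8 and 19 with upper-quartile scaling and 17 and 13 by DESeq2. None of the 5 arms passed the adjusted threshold of the edgeR test, and 2 of them (miR-125-3p and let-7-5p) lay under 0.05 before adjustment. let-7-5p had an age change that was 0.89 ± 0.38 higher in hemolymph than in body on the log2 scale (adjusted p = 0.110), and miR-125-3p one that was lower, at -1.28 ± 0.57 (adjusted p = 0.120). The values of the others were 1.42 ± 0.74 for miR-100-5p (adjusted p = 0.182), 0.23 ± 0.62 for miR-100-3p (adjusted p = 0.861) and 0.08 ± 0.47 for miR-125-5p (adjusted p = 0.940). DESeq2 called 1 of the 5 arms, let-7-5p, at 1.06 (adjusted p = 0.00483), and RLE scaling called let-7-5p at 1.06 (adjusted p = 0.0142). With library numbers as a block, which pairs the old libraries too although only the young numbers were taken to pair, let-7-5p was called at 0.82 (adjusted p = 0.0149) and miR-100-5p at 2.23 (adjusted p = 0.00993). Without young libraries 1 and 2, let-7-5p (1.14, adjusted p = 0.000909), miR-100-5p (4.51, adjusted p = 8.86e-08) and miR-125-5p (1.79, adjusted p = 0.000764) were called. Without young libraries 3 and 4 none of the 5 was called, the lowest being let-7-5p at 0.88 (adjusted p = 0.0708).

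**Figure D3:**
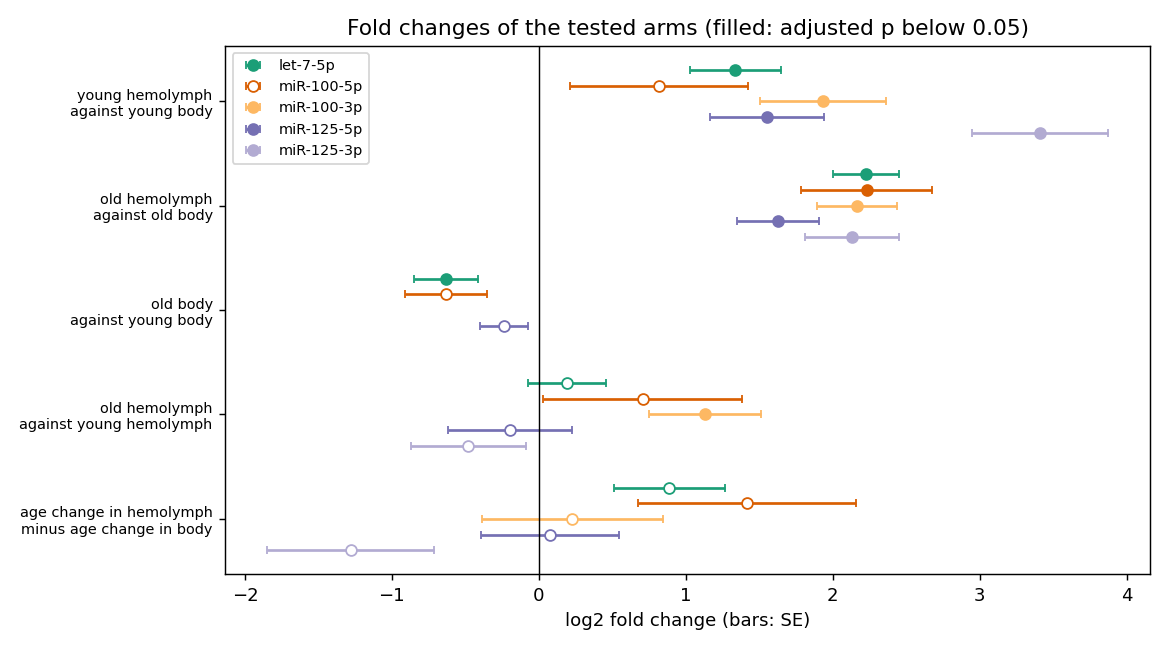
Log2 fold changes of the tested arms (points, with SE bars) in the 5 comparisons, filled where the adjusted p was below 0.05 and open otherwise. In old flies all 5 arms lie between 1.63 and 2.23 to the right of 0, in young flies 4 of 5 are filled, in the body age comparison let-7-5p alone is filled at -0.63, in the hemolymph age comparison miR-100-3p alone at 1.13, and in the difference of age changes all are open.

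Ratios within a library need no scaling factor, and they were used to see whether the members kept step with each other. Each was taken as (count + 0.5) over (count + 0.5), and differences between groups were tested with a two-sided exact permutation test of the mean log2 ratio, adjusted over 26 ratio tests. The number of libraries limits the p, which could not go below 0.000155 with 8 libraries in each group, 0.00404 with 8 and 4, or 0.0286 with 4 in each.

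let-7-5p and miR-100-5p kept nearly the same ratio in most libraries. It ran from 3.44 to 6.45 in old hemolymph (median 4.98), from 3.76 to 6.31 in old body (median 5.12) and stood at 4.58, 4.93, 5.30 and 5.06 in young body libraries 1 to 4. In young hemolymph it was 5.30 and 4.97 in libraries 1 and 2, within the range of the other groups, and 51.0 and 47.6 in libraries 3 and 4. In young body, where let-7-5p and miR-100-5p had log2 SDs of 0.47 and 0.55 between libraries, their log2 ratio had an SD of 0.088. The 2 arms thus varied together in that group. Elsewhere the SD of the ratio was not so small beside those of let-7-5p and miR-100-5p. It was 0.30 in old body (arms 0.18 and 0.39), 0.30 in old hemolymph (0.32 and 0.31) and 1.89 in young hemolymph (0.65 and 2.58). The mean log2 ratio was 2.28 ± 0.30 in old hemolymph and 2.32 ± 0.30 in old body, a difference of -0.04 (exact permutation p = 0.801, adjusted p = 0.833). It was 2.32 ± 0.30 in old body and 2.31 ± 0.09 in young body, a difference of 0.01 (exact permutation p = 0.954, adjusted p = 0.954). Between old hemolymph and young hemolymph the difference was -1.71 (exact permutation p = 0.0727, adjusted p = 0.189), with means of 2.28 ± 0.30 and 3.99 ± 1.89.

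In old flies miR-125-5p stood lower against miR-100-5p in hemolymph than in body. The ratio of miR-125-5p to miR-100-5p ran from 1.05 to 1.62 in old hemolymph (median 1.28) and from 1.38 to 2.60 in old body (median 1.99). Its mean log2 value was 0.39 ± 0.19 in old hemolymph and 1.02 ± 0.28 in old body, a difference of -0.63 (exact permutation p = 0.000466, adjusted p = 0.0121). In young hemolymph the ratio was 2.43, 1.84, 10.5 and 9.31 in libraries 1 to 4, and in young body 1.01, 1.30, 2.47 and 2.43. The mean log2 ratio of the young groups differed the other way, by 1.45 (2.19 ± 1.30 in young hemolymph, against 0.74 ± 0.65 in the young body libraries, exact permutation p = 0.143, adjusted p = 0.265), and did not pass. All 4 young hemolymph libraries lay above all 8 old hemolymph libraries, and the mean log2 ratio was lower by 1.81 in old hemolymph than in young hemolymph (0.39 ± 0.19 against 2.19 ± 1.30, exact permutation p = 0.00404, the smallest possible, adjusted p = 0.0263). The difference without young hemolymph libraries 3 and 4 was -0.69, with the groups still apart (exact permutation p = 0.0444, the smallest possible for the libraries left, adjusted p = 0.144).

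The age change of that ratio also differed between compartments. Libraries were joined by number for this test. For the old libraries, whose numbers were not taken to pair, the joining is arbitrary. It sets the SD, the overlap and with them the permutation p. The hemolymph minus body difference of same-numbered libraries averaged -0.63 ± 0.26 at 25 days (n = 8) and 1.45 ± 0.73 at 2 days (n = 4), which is -2.08 between them (exact permutation p = 0.00404, the smallest possible, adjusted p = 0.0263). The 2 sets did not overlap, also when any 1 of the 24 libraries was left out, but the adjusted p then ran up to 0.0788 and was past the threshold in 14 of 24 cases. It was 0.119 with O-coded and 0.238 with R-coded old libraries, where the smallest p before adjustment was 0.0286. Without young hemolymph libraries 3 and 4 the value was -1.52 (exact permutation p = 0.0444, adjusted p = 0.144).

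let-7-5p exceeded miR-125-5p by more in the hemolymph of old flies than in their body. The ratio ran from 2.50 to 5.01 in old hemolymph (median 4.13) and from 1.85 to 2.86 in old body (median 2.47). Mean log2 ratios were 1.90 ± 0.42 in old hemolymph and 1.30 ± 0.20 in old body, a difference of 0.60 (exact permutation p = 0.00404, adjusted p = 0.0263). The ranges overlapped, and the adjusted p reached 0.0525 when single libraries were left out, past the threshold for 6 of 16 libraries (old body library 1 and old hemolymph libraries 2, 3, 4, 5 and 7). In the young groups the order of the libraries was turned round between compartments: 2.18, 2.70, 4.88 and 5.12 in young hemolymph libraries 1 to 4, against 4.56, 3.79, 2.14 and 2.08 in young body libraries 1 to 4. Their mean log2 ratios were 1.80 ± 0.61 and 1.57 ± 0.57, a difference of 0.23 (exact permutation p = 0.514, adjusted p = 0.581).

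**Figure D4:**
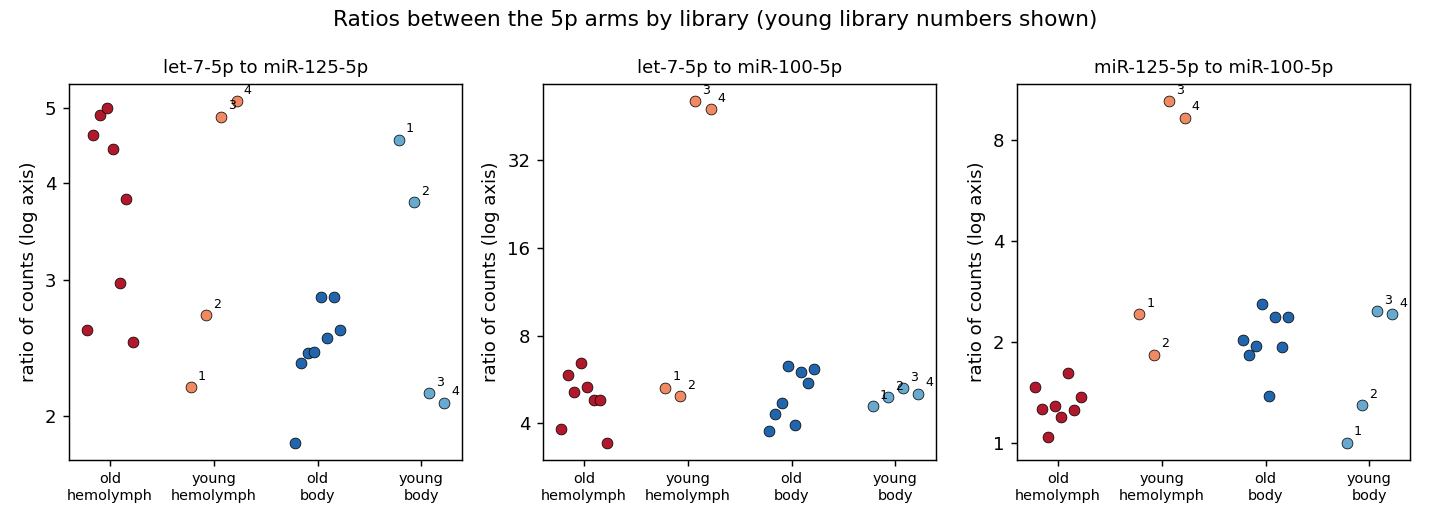
Ratios of counts between the 5p arms on log axes, 1 circle a library, with the library numbers of the young groups. let-7-5p to miR-100-5p lies between 3.44 and 6.45 in all libraries but young hemolymph 3 and 4, at 51.0 and 47.6, and miR-125-5p to miR-100-5p of old hemolymph (1.05 to 1.62) lies below all 4 young hemolymph libraries.

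The arms of each hairpin were then compared, because their balance says which strand of the duplex was recovered. The 5p arm was the main product of all 3 hairpins in every group. Pooled over libraries, the 3p arm of let-7 made up 0.272% of both arms' counts in old hemolymph (18 counts), 0.143% in young hemolymph (7 counts), 0.409% in old body (11 counts) and 0.216% in young body (5 counts). For miR-100 the pooled 3p share was 5.41% in old hemolymph, 3.06% in young hemolymph, 5.66% in old body and 2.28% in young body. For miR-125 it was 5.41% in old hemolymph, 5.04% in young hemolymph, 4.01% in old body and 2.02% in young body. let-7 thus kept the smallest 3p share of the 3 hairpins in each group.

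No difference in the 5p to 3p ratio passed the adjustment, and the 3p counts behind them were small. The nearest were the age changes in body and the difference of the age changes of the miR-100 arms between compartments (2.32, exact permutation p = 0.0162, adjusted p = 0.0700). The log2 ratio of miR-125-5p to miR-125-3p was 4.53 ± 0.51 in old body and 5.42 ± 0.27 in young body, a difference of -0.89 (exact permutation p = 0.0162, adjusted p = 0.0700). That of miR-100-5p to miR-100-3p was 3.86 ± 0.41 in old body and 5.28 ± 1.08 in young body, a difference of -1.42 (exact permutation p = 0.0202, adjusted p = 0.0750). Between the young compartments the 4 hemolymph libraries all lay below the 4 body libraries for miR-125 (5p to 3p ratios of 18.9, 35.5, 7.67 and 2.69 in young hemolymph, against 40.1, 39.3, 37.5 and 56.3 in young body). That difference, -1.98 on the log2 scale, had the smallest p the design allows (exact permutation p = 0.0286, adjusted p = 0.0929). Its size leaned on young hemolymph libraries 3 and 4, which had the lowest ratios. With single libraries left out it ran from -2.55 to -1.31. The permutation test leaves out any pairing of the young numbers, and with 4 pairs no p below 0.125 is possible.

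Young hemolymph library 4 stood apart in arm balance as well. In library 4 the 3p arm supplied 5 of 11 miR-100 counts, or 45.5% (exact binomial 95% interval 16.8 to 76.6%), and 22 of 82 miR-125 counts, or 26.8% (17.6 to 37.8%). In library 3 it supplied 2 of 7 miR-100 counts, or 28.6% (3.67 to 71.0%), and 7 of 64 miR-125 counts, or 10.9% (4.51 to 21.3%), intervals that overlap that of library 2 for miR-100 and that of library 1 for miR-125. In libraries 1 and 2 the miR-100 share was 1.07% (0.292 to 2.72%) and 3.27% (1.88 to 5.26%), and the miR-125 share 4.97% (3.67 to 6.55%) and 2.68% (1.73 to 3.97%). miR-125-3p had 277, 87.0, 124.98 and 318 CPM in libraries 1 to 4, and miR-100-3p 23.6, 58.0, 35.7 and 72.2 CPM, from 2 to 16 counts in a library.

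**Figure D5:**
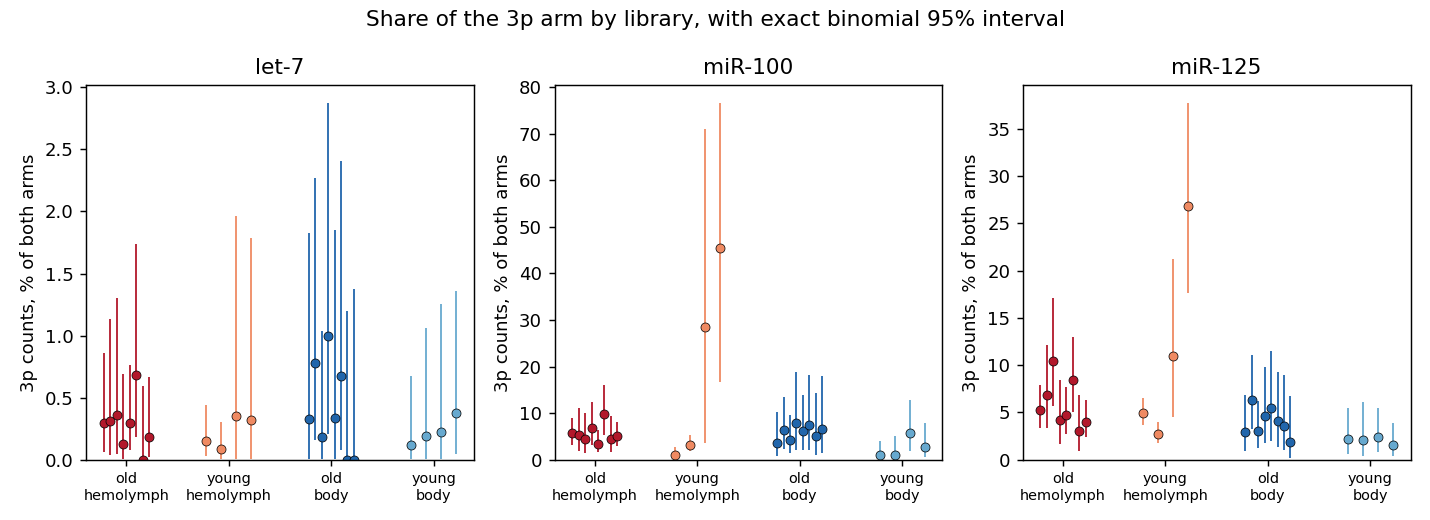
Share of the 3p arm in the counts of both arms, in percent, for let-7, miR-100 and miR-125, 1 point a library, with exact binomial 95% intervals. Most libraries lie under 10%, and young hemolymph library 4 stands highest for miR-100 (45.5%) and miR-125 (26.8%), with library 3 at 28.6 and 10.9% and wide intervals.

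Other microRNAs tied to developmental timing or to ecdysone were set beside the complex: miR-34-5p, which protects the ageing fly brain, miR-14-3p, which acts on the ecdysone receptor, bantam-3p and miR-8-3p, which act on growth and hormone signalling, miR-252-5p and miR-965-3p. In old flies 3 of these 6 were higher in hemolymph than in body and none lower, and in young flies 4 of 6 were higher and none lower, with the shares over all microRNAs given above. The median log2 fold change of the 6 was 0.84 in old flies and 0.83 in young flies. It was 2.16 and 1.55 for the 5 tested arms of the complex, whose 3p arms passed the filter only through hemolymph. miR-8-3p, the most abundant of them, was higher in hemolymph by 1.20 ± 0.16 in old flies and 1.52 ± 0.23 in young flies (adjusted p = 2.27e-07 and 1.89e-06). miR-252-5p was higher by 1.22 ± 0.18 and 1.11 ± 0.26 (adjusted p = 1.91e-06 and 0.000536). miR-965-3p was higher by 2.09 ± 0.57 in old flies (adjusted p = 0.00162) and was not called in young flies (-0.28 ± 0.75, adjusted p = 0.725). It averaged 179 ± 270 CPM in old hemolymph (90 counts in all), where the SD exceeds the mean. In old body it averaged 34.5 ± 8.06 CPM (45 counts in all).

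With age, 3 of the 5 tested in body were higher in old flies and 1 lower, where 19.1% of all microRNAs tested were called higher and 29.6% lower. In hemolymph 1 of 5 was higher and 2 lower, against 18.6% and 27.9% of all microRNAs tested. miR-34-5p averaged 12741 ± 2666 CPM in old hemolymph and 1871 ± 1503 CPM in young hemolymph, a rise of 2.60 ± 0.57 (adjusted p = 0.00221). In body it averaged 8478 ± 546 CPM in old flies and 3703 ± 1496 CPM in young flies, a rise of 1.19 ± 0.20 (adjusted p = 0.000418). bantam-3p fell by 1.32 ± 0.13 in old hemolymph (adjusted p = 5.56e-06) and by 0.46 ± 0.18 in old body (adjusted p = 0.0434). miR-14-3p was higher by 0.52 ± 0.20 in old body (adjusted p = 0.0434) and fell by 0.59 ± 0.20 in old hemolymph (adjusted p = 0.0239), and it was the 1 of the 6 whose age change differed between compartments (-1.07 ± 0.33, adjusted p = 0.0258). miR-8-3p was higher in old body by 0.66 ± 0.10 (adjusted p = 0.00041) and was not called in hemolymph (0.40 ± 0.21, adjusted p = 0.148). The age changes of miR-252-5p were 0.13 ± 0.22 in hemolymph (adjusted p = 0.644) and 0.02 ± 0.15 in body (adjusted p = 0.912).

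Likeness of pattern was measured as the root mean square difference of log2 CPM over the 24 libraries, each microRNA centred on its own mean, against 119 microRNAs that are not members. These libraries share compartment, age and depth, so the values only describe. let-7-5p was nearest to miR-125-5p of its own transcript (0.47), ahead of all 119 others, of which miR-284-3p (0.49), miR-14-5p (0.50), bantam-5p (0.50) and miR-190-5p (0.55) came next. The median of the others was 1.46. miR-100-5p stood farther off, at 0.93 from let-7-5p, and 33 of the 119 others were nearer to let-7-5p than it was. The log2 ratio of these 2 arms was 5.67 and 5.57 in young hemolymph libraries 3 and 4, against 1.78 to 2.69 in all other libraries. Distances were not taken without libraries 3 and 4, so those of miR-100-5p do not describe the other libraries alone. Seen from miR-100-5p, however, the nearest pattern was miR-125-5p (0.80), followed by miR-278-5p (0.87) and then let-7-5p (0.93), with only 1 of the 119 others nearer than let-7-5p. After these came miR-284-3p (0.98), miR-278-3p (1.09) and miR-988-5p (1.10), with a median of 1.78. miR-125-5p was followed after let-7-5p (0.47) by miR-11-3p (0.55), bantam-5p (0.57), miR-279-3p (0.57) and miR-278-3p (0.57), with a median of 1.43.

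The 9 microRNAs named for a like pattern were all called higher in old hemolymph than in old body, against 36.3% of all microRNAs tested. Between young hemolymph and young body 7 of the 9 were called higher, against 33.1%. They were chosen by their pattern over these same libraries, so these counts only describe. miR-284-3p averaged 2037 ± 513 CPM in old hemolymph, 1594 ± 1096 CPM in young hemolymph, 280 ± 44.6 CPM in old body, with 378 ± 61.2 CPM in young body. miR-278-5p, like miR-100-5p, was not called between young hemolymph and young body (0.24 ± 0.37, adjusted p = 0.560), and averaged 826 ± 586 CPM in young hemolymph and 693 ± 297 CPM in young body.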

How the data were processed

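Small RNA was sequenced as single 50 base reads from TruSeq small RNA libraries, per the labels' protocols. The deposited table gives, for each of 476 mature microRNA and hairpin rows, whole read counts per library and RPM values, which equal count over column total to within 0.005. The submitters' processing notes name Bowtie 1.0, edgeR and dm6, and the microRNA annotation release and how multiply mapping reads were handled are not stated in these sources. Where several hairpins give one mature name, its largest row was used (10 rows left out), and the deposited counts alone were tested. Counts were fitted in R 4.3.3 with edgeR 4.0.16 (TMM factors, filterByExpr at a minimum count of 10, quasi-likelihood F test, Benjamini-Hochberg at 0.05 over all microRNAs tested), over 24 libraries for compartments and the interaction and over 12 for ages. An SE is the absolute log2 fold change over the square root of F. Ratios used Python 3.11.15 and scipy 1.17.1, where both members had at least 10 counts in each group. Scripts were tested on simulated data. The members, the lists of other microRNAs and the tests were chosen with earlier results of these data known. Named microRNAs were the 6 arms, the fixed list, and the 4 nearest patterns of each 5p arm. Alternatives were upper-quartile or RLE factors, scaling by library size, no filter, DESeq2 1.42.0, the replicate block, the old libraries by description code (O or R, not explained in the labels), another choice of libraries in the fit, a pseudocount of 1, and libraries left out singly or in pairs.

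Same-numbered hemolymph and body libraries were checked for pairing by correlating their deviations from the group means over microRNAs. The r was 0.603, 0.120, 0.294 and 0.593 for the 4 young numbers, each over 0.1, so the young numbers were taken to pair, from the data and not from the labels. It was -0.322 to 0.122 for the 8 old numbers, which were not. Young body library 3 had a higher r with young hemolymph library 4 (0.550) than with its own number. Young libraries 1 and 2 also stood apart from 3 and 4 in both compartments, and the check cannot separate that split from pairing.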

Additional observations from a re-analysis of the deposited data

Results flagged for a closer look

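Among 48 sets of a group's values, 3 held 1 library far from the rest of its group, and chance gives about 1 in 20. let-7-3p had 8.23 CPM in young body library 4, which is 2 counts, against 5.06 to 5.55 CPM in the other young body libraries. The log2 ratio of let-7-5p to miR-125-5p was 0.89 in old body library 1, against 1.23 to 1.51 in the other old body libraries. The log2 ratio of miR-125-5p to miR-125-3p was 5.82 in young body library 4, against 5.23 to 5.33 in the other young body libraries. The age change of the ratio of miR-125-5p to miR-100-5p differed between compartments, with a log2 difference of -2.08 (hemolymph minus body at 25 days, less the same at 2 days, exact permutation p = 0.00404, adjusted p = 0.0263 over 26 tests). Young hemolymph libraries 3 and 4, with 5 and 6 counts of miR-100-5p, had the highest ratios of their group, and their part in this difference is given by the value without them, -1.52.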

How the results depend on the processing

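Of the settings tried for single arms, 632 values kept their direction and side of the threshold, 14 lost the call, 30 gained it and 19 changed sign. For the ratios the numbers were 418, 41, 1 and 22. All 5 rises in old hemolymph over old body, and those of let-7-5p and miR-125-3p in young hemolymph, were called under every setting that could be fitted. With RLE factors the median log2 fold change of all microRNAs was -0.78, -0.73, -0.12, 0.11 and 0.27 for young compartments, old compartments, body age, hemolymph age and the difference of age changes, against -0.26, -0.45, -0.20, 0.02 and 0.09 with TMM and 0.32, 0.03, -0.32, 0.24 and -0.07 with upper-quartile factors. The causes of the changes below were not tested.

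RLE factors called let-7-5p in the difference of age changes (1.06), as did library size alone (1.01) and DESeq2 (1.06). Upper-quartile factors called miR-100-5p between young compartments (1.54). Upper-quartile factors also turned miR-125-5p in hemolymph age (0.073) and in the difference (-0.073), and library size alone turned it in hemolymph age (0.095). With no filter, miR-100-3p in hemolymph age (1.15) lost its call. Compartments fitted on their 2 groups alone took miR-125-5p between young compartments to 1.34 (adjusted p = 0.0521). O-coded old libraries gave -0.53 for let-7-5p in body age and R-coded ones -0.73, neither called, and R-coded ones turned miR-125-5p in hemolymph age (0.032). Without young libraries 1 and 2, values between young compartments were -2.30 for miR-100-5p, 1.52 for miR-100-3p (call lost) and -0.19 for miR-125-5p. In body age they were -0.071 for let-7-5p and 0.016 for miR-100-5p. In hemolymph age they were 0.87 for let-7-5p, 4.33 for miR-100-5p, 0.93 for miR-100-3p and 1.32 for miR-125-5p, and in the difference 1.14, 4.51 and 1.79 for let-7-5p, miR-100-5p and miR-125-5p (all 3 called). Without young libraries 3 and 4 they were 1.30 for miR-100-5p between young compartments and -1.02 for it in body age. In hemolymph age they were then -0.34, -0.26, 1.14 and -0.97 for let-7-5p, miR-100-5p, miR-100-3p and miR-125-5p, and in the difference -0.081 and -0.45 for miR-100-3p and miR-125-5p.

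The replicate block changed no call between young compartments, the comparison whose numbers were taken to pair. Across ages libraries share only a number (r from -0.200 to 0.461), as do the old libraries, which the difference holds beside the young ones taken to pair. There the block gave -0.42 for let-7-5p in body age (not called), 1.22 for miR-100-3p (not called) and 0.17 for miR-125-5p in hemolymph age, and 0.82 and 2.23 for let-7-5p and miR-100-5p in the difference (both called). The exact paired permutation gave adjusted p = 0.0700 for let-7-5p to miR-125-5p (0.60) and 0.0677 for miR-125-5p to miR-100-5p (-0.63) in old flies, where the smallest p is 0.00781. Calls over all microRNAs in the difference were 18, against 28 (RLE), 9 (no filter), 30 (DESeq2), 5 (R-coded) and 29 (without young libraries 1 and 2). In body age they were 56, against 5 (block), 28 (O-coded) and 28 (R-coded), and in hemolymph age 40, against 20 (block) and 25 (O-coded).

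With 4 old libraries few ratio tests can pass the adjustment. O-coded libraries gave, in old flies, 0.88 for let-7-5p to miR-125-5p, -0.73 for miR-125-5p to miR-100-5p and 0.16 for let-7-5p to miR-100-5p, which was -0.084 in body age. R-coded ones gave 0.31 and -0.54 for the first 2 and -0.056 for let-7-5p to miR-125-5p in hemolymph age. miR-125-5p to miR-100-5p was -1.86 (O-coded) and -1.75 (R-coded) in hemolymph age and -2.17 and -1.99 in the difference. Without young hemolymph libraries 3 and 4 it was -0.69 and -1.52, let-7-5p to miR-125-5p between young compartments -0.29, the miR-100 arms 0.32 between young compartments and -1.55 in hemolymph age, and the miR-125 arms -0.64 in hemolymph age. A pseudocount of 1 or none changed no ratio call.

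Leaving out single libraries gave 0.29 to 1.31 for miR-100-5p between young compartments (called without young hemolymph 3 or 4). In body age it gave -0.82 to -0.27 for let-7-5p, -0.83 to -0.21 for miR-100-5p (called without old body 1 or young body 4) and -0.45 to -0.12 for miR-125-5p (called without old body 1). In hemolymph age it gave 0.85 to 1.57 for miR-100-3p, which failed the filter in 4 of 12 such fits, and -0.33 to 0.40 for miR-125-5p. In the difference it gave 0.47 to 1.24 for let-7-5p (called in 11 of 24) and -0.13 to 0.72 for miR-125-5p. Ratios of let-7-5p to miR-125-5p ran from 0.54 to 0.68 in old flies, -0.13 to 0.28 in hemolymph age and -0.068 to 0.72 in the difference. Those of let-7-5p to miR-100-5p ran from -0.097 to 0.034 in old flies and -0.039 to 0.068 in body age. miR-125-5p to miR-100-5p ran from -2.24 to -1.41 in hemolymph age and -2.40 to -1.87 in the difference, with no overlap in 12 of 12 and 24 of 24 cases and adjusted p up to 0.0788. The miR-125 arms ran from -1.01 to -0.76 in body age (called without old body 8) and -0.059 to 1.18 in hemolymph age, and the miR-100 arms from -0.061 to 1.98 there. Depth limits the 3p arms most, with 2 to 17 counts of miR-100-3p in a hemolymph library.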
